A study of Mus musculus with 16 samples.

Results

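A set of 32 genes of cholesterol and fatty acid synthesis, most of them known targets of the SREBP transcription factors, were followed in leukemia cells and in host bone marrow cells of wild-type (WT) and IL-6 KO mice. The 32 genes were listed by symbol for their known roles, and all 32 were found among the 15080 genes of the tumor table and among the 13344 genes of the stroma table. They comprised 18 enzymes of cholesterol synthesis, 5 regulators of the SREBP pathway and 9 enzymes that make, elongate or desaturate fatty acids.

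C57BL/6J mice, either WT or Il-6-/- (IL-6 KO) and 6 to 8 weeks of age, received 500000 BCR-ABL+, Arf-/- B-ALL cells by tail vein and were left untreated until their marrow was taken on day 8. The leukemia is a transplanted line marked with mCherry, so the tumor cells of all mice shared one origin and the deletion of IL-6 lay in the host only. Marrow of femur and tibia was freed of red blood cells and sorted into mCherry+ cells, called tumor, and mCherry- cells, called stroma, a fraction that holds every unmarked host cell and not only supporting stroma. RNA-sequencing gave 4 libraries each of WT tumor, IL-6 KO tumor, WT stroma and IL-6 KO stroma, and the labels do not say whether each library came from 1 mouse, so the p-values measure the spread between libraries.

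SREBP proteins are made as membrane-bound precursors of the endoplasmic reticulum. When sterols are low, the escort protein SCAP carries them to the Golgi, where proteases release the part that enters the nucleus, and when sterols are high, INSIG proteins hold SCAP back. SREBP2 mainly drives genes of cholesterol synthesis and SREBP1 genes of fatty acid synthesis, and dividing leukemia cells draw on both pathways for membranes and for the prenyl groups that anchor small GTPases.

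Tumor and stroma libraries differed as their labels say. The summed normalized count of B lineage markers lay between 135178 and 153863 in tumor (9 markers listed) and between 549 and 1581 in stroma (10 listed), whereas 10 erythroid markers summed to between 45996 and 199115 in stroma. None of 8 adipocyte markers was listed in either table. Values that recur within a library were whole multiples of 1 step, taken as the worth of 1 read. On that scale, and with 3 abundant non-coding RNAs (Rn7s1, CT010467.1 and Gm26917) set aside, WT tumor libraries held 21040000 to 32340000 read equivalents and IL-6 KO tumor libraries 31280000 to 57630000, and WT stroma libraries 6550000 to 12370000 and IL-6 KO stroma libraries 1880000 to 6360000. Read equivalents thus moved with genotype in both compartments, with 1 IL-6 KO tumor library inside the WT range and no overlap in stroma. They are approximate, and those of all tumor libraries lie above the approximate depth that the study states for its libraries. The part of depth in the results was not tested.

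The promoters of the genes were examined first for the letters that SREBPs and their usual partners are known to read. RefSeq promoter windows (GRCm38.p6, 250 bases before to 50 bases after the start) were found for 25 of the 32 genes, and none was found for Fdps, Fdft1, Sqle, Stard4, Scd1, Scd2 and Fads1. The sterol regulatory element in its strict spelling, TCACNCCAC on either strand, occurred in Hmgcs1 alone, and in 1.44% of all 27025 genes with a window. The CCAAT box, which binds NF-Y, occurred in 20 of the 25 genes, against 41.1% of all genes. The GC box GGGCGG, which binds Sp1, occurred in 20 of the 25, against 38.2%, and both boxes together in 17, against 14.5%. The E-box CACGTG was found in 6 genes (Dhcr7, Elovl5, Hsd17b7, Insig1, Sc5d and Scap), against 8.09%. These counts describe letters in a window and say nothing of binding.

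The next 5 windows are printed because their genes carry the results below. Hmgcs1, the enzyme that makes HMG-CoA for the mevalonate pathway, held the strict sterol element. Fasn, Mvk and Mvd were those that rose in tumor with the smallest p values, and Tm7sf2 was the one that fell. Capitals mark CCAAT, or ATTGG where it lies on the other strand, and in Hmgcs1 also the sterol element. The windows are Hmgcs1 at chr13:119690101-119690400, + strand, Fasn at chr11:120824498-120824797, - strand, Mvk at chr5:114444019-114444318, + strand, Mvd at chr8:122443373-122443672, - strand, and Tm7sf2 at chr19:6067801-6068100, - strand.
Hmgcs1: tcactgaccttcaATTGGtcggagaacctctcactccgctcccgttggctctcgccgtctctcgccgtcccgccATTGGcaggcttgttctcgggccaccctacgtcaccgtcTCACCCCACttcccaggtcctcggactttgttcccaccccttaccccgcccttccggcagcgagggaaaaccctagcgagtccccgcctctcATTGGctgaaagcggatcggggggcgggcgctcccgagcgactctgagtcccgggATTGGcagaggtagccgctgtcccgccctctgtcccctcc
Fasn: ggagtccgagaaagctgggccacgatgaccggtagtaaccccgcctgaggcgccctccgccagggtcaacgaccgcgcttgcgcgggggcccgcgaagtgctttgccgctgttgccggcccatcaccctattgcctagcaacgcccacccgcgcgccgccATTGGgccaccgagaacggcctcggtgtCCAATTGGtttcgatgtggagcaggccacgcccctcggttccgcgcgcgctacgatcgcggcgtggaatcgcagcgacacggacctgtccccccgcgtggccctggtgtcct
Mvk: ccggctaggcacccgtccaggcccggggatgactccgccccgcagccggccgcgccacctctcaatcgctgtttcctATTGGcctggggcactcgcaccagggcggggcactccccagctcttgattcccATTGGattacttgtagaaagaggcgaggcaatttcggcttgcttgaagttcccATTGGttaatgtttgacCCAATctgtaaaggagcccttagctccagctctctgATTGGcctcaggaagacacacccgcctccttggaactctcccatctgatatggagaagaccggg
Mvd: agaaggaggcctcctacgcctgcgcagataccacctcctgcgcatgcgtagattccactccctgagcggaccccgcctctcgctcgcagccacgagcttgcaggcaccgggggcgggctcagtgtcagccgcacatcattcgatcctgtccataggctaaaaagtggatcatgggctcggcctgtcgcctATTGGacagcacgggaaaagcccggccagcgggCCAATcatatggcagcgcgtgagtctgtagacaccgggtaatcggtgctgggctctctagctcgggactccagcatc
Tm7sf2: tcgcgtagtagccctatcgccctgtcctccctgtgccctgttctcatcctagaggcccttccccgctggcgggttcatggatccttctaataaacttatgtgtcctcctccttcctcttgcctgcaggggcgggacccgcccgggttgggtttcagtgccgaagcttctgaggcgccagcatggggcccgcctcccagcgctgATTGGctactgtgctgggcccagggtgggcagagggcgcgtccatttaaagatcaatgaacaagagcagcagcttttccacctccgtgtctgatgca
Hmgcs1 held 4 CCAAT boxes, Mvk 5, Fasn 3 (of which 2 overlap), Mvd 2 and Tm7sf2 1.

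The first comparison asked whether leukemia cells grown in a host without IL-6 express these genes differently. In tumor, 5 of the 32 genes were higher in IL-6 KO mice and 1 was lower. The 5 were Fasn, Acly, Acat2, Mvk and Mvd, which stand at the entry of fatty acid synthesis and in the early, mevalonate part of cholesterol synthesis, and the one that fell was Tm7sf2, a late sterol reductase. The 5 rises were 15.6% of the genes, against 10.6% of all 14493 genes tested, and the single fall was 3.12%, against 9.16%. Both directions together were 18.8% of the 32 genes, against 19.8% of all genes. With the filter raised to a mean over 50, 15.6% of the 32 were called higher, against 13.8% of the 11238 genes then tested. Calls are limma's moderated test on log2(normalized count + 1) with Benjamini-Hochberg adjustment over all genes tested, at an adjusted p under 0.05. At an unadjusted p under 0.05, where 35.1% of all genes stood, 10 genes were higher (31.2%, against 18.3% of all genes) and 2 were lower (6.25%, against 16.8%). The log2 fold change was positive for 25 of the 32 genes, with a median of 0.17, and for 7149 of all 14493 genes, with a median of -0.0059.

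Fasn, the multi-domain enzyme that builds palmitate, had normalized counts of 15318, 15675, 17010 and 20431 in WT tumor libraries 1 to 4 and of 29184, 23473, 25640 and 25029 in IL-6 KO tumor. Every IL-6 KO library lay above every WT library. The log2 fold change was 0.60 (standard error 0.10, limma adjusted p = 0.00507). Acly, which splits citrate into the acetyl-CoA used by both pathways, had 12418, 10732, 11235 and 11861 in WT and 16210, 12679, 14928 and 14542 in IL-6 KO. The groups did not overlap, but the lowest IL-6 KO library (12679) was close to the highest WT library (12418). Its log2 fold change was 0.33 (standard error 0.08, limma adjusted p = 0.0218). Acaca, the acetyl-CoA carboxylase between them in the pathway, went from a mean of 5975 to 6893, with overlapping groups and a log2 change of 0.20 (limma adjusted p = 0.18).

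In the mevalonate part, Mvk, which phosphorylates mevalonate, had 433, 514, 469 and 549 in WT tumor and 681, 758, 652 and 686 in IL-6 KO tumor. The groups did not overlap, and the log2 fold change was 0.50 (standard error 0.10, limma adjusted p = 0.0107). Mvd, which decarboxylates mevalonate diphosphate to isopentenyl diphosphate, had 238, 309, 330 and 446 in WT and 589, 546, 462 and 572 in IL-6 KO. The highest WT library and the lowest IL-6 KO library were almost level, and the log2 fold change was 0.74 (standard error 0.18, limma adjusted p = 0.0193). Acat2, the cytosolic thiolase that starts the pathway, had 1170, 1302, 1321 and 1794 in WT and 2351, 1520, 2097 and 2167 in IL-6 KO. Here the groups overlapped, because WT library 4 stood above IL-6 KO library 2, and the log2 fold change was 0.54 (standard error 0.16, limma adjusted p = 0.0413). The near-identical Acat3 had means of 59.8 and 22.2, and the sum of both genes went from 1457 to 2056.

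Tm7sf2, a sterol C14 reductase, was low in all libraries and lower in IL-6 KO tumor. It had 60.2, 74.7, 93.4 and 67.4 in WT and 50.4, 42.1, 39.4 and 45.6 in IL-6 KO, with no overlap. The log2 fold change was -0.71 (standard error 0.21, limma adjusted p = 0.0394). Without overlap of the genotypes, 5 genes were higher (Fasn, Acly, Mvk, Mvd and Pmvk) and 1 lower, against 13.6% and 12% of all genes tested. Pmvk, the kinase that follows Mvk, went from 591 ± 49.3 to 714 ± 79.2 (SD, n = 4) and did not pass the threshold (log2 fold change 0.27, limma adjusted p = 0.105).

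**Figure D1:**
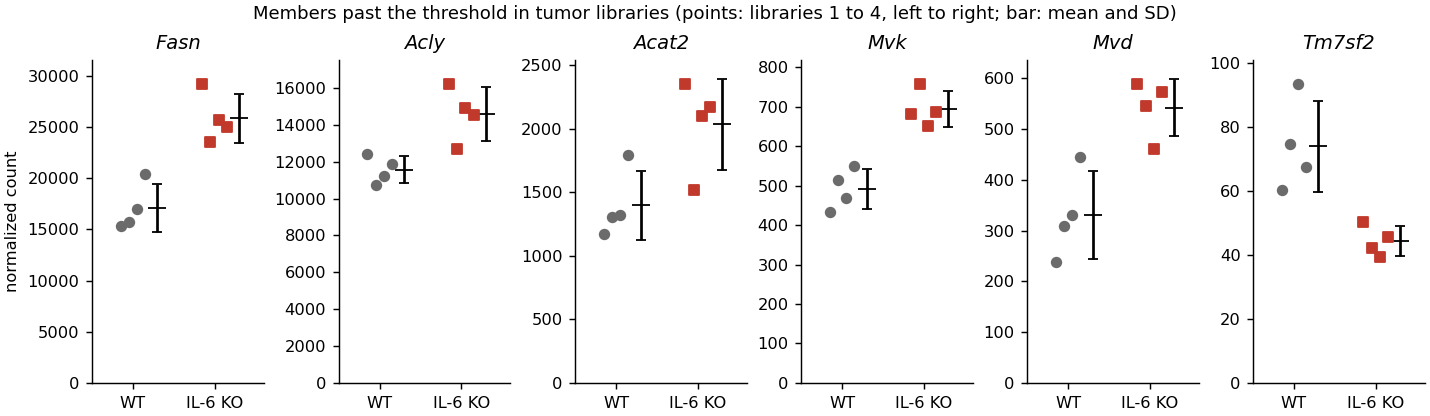
Normalized counts (y axis, from 0, a separate scale for each gene) of the 6 genes past the threshold in tumor, with a point for each library and a bar for the mean and SD of 4 libraries. IL-6 KO libraries lie above all WT libraries for Fasn, Acly, Mvk and Mvd, below all of them for Tm7sf2, and overlap with them for Acat2.

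The calls depended on how the values were corrected. After trends of the libraries with the GC percent and length of transcripts were removed, none of the 5 rises passed: Fasn had a log2 change of 0.39 (limma adjusted p = 0.0542), Mvk 0.30 (0.0853), Mvd 0.51 (0.0874), Acat2 0.52 (0.057) and Acly 0.23 (0.105), while Hmgcs1 then passed at 0.52 (0.0408) and Tm7sf2 still did at -0.78 (0.0371). In that fit 12.6% of all genes were called, against 19.8% without the correction, and 6.85% were called higher, against 10.6%. The GC content of the transcripts was 57.9% for Fasn, 56.3% for Mvk, 59.0% for Mvd, 52.1% for Acly, 49.6% for Acat2, 51.0% for Tm7sf2 and 43.1% for Hmgcs1. Fasn and Mvk passed in each of the 8 fits that left out 1 library, with adjusted p up to 0.0193 and 0.0346.

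Along the cholesterol pathway, the early and the late enzymes gave different values in tumor. Of the 8 enzymes from acetyl-CoA to squalene (Acat2, Hmgcs1, Mvk, Pmvk, Mvd, Idi1, Fdps and Fdft1), 7 had an unadjusted p under 0.05 and a positive log2 fold change. That was 87.5%, against 18.3% of all genes. Past the adjusted threshold were 3 of the 8 (37.5%), against 10.6% of all genes, and the median was 0.38. Of the 8 enzymes from lanosterol to cholesterol (Cyp51, Tm7sf2, Msmo1, Nsdhl, Hsd17b7, Ebp, Sc5d and Dhcr7), none was higher by either threshold, and the median was 0.0012. By either threshold 1 was lower (12.5%, against 16.8% of all genes unadjusted and 9.16% adjusted). This division of the enzymes was made after their values were seen and was not tested. After removal of the GC and length trends, the early Pmvk had a log2 change of 0.080 and Fdft1 0.29, against 0.52 for Hmgcs1. The late Hsd17b7 and Sc5d then had 0.13 and 0.14. The part of GC content in the division was not tested. Among the early enzymes, Hmgcs1 had a log2 change of 0.38 (limma adjusted p = 0.12), Fdps, which makes farnesyl diphosphate, 0.35 (0.0989), and Fdft1, the squalene synthase at the branch to sterols, 0.39 (0.0628). Idi1, the isomerase of isopentenyl diphosphate, stood apart at -0.010. Its listed copy Gm13502, identical over 684 nucleotides, had means of 365 in WT and 46.6 in IL-6 KO tumor, the split of reads within the pair is uncertain, and their sum went from 2479 to 2112. Sqle and Lss, which oxidize and cyclize squalene, had 0.25 and 0.21, and neither passed.

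Among the late enzymes, Msmo1, a sterol methyl oxidase, had the lowest log2 fold change after Tm7sf2, at -0.48 (limma adjusted p = 0.177). The remaining 6 lay between -0.027 for Sc5d and 0.21 for Nsdhl, and none passed. With standard errors of 0.10 to 0.23 on the log2 scale, differences of the size seen in Acly could not be told from none in several of them.

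The regulators gave no call in tumor, although all 5 log2 fold changes were positive. Srebf2, which encodes SREBP2, had 6184, 6733, 7329 and 10254 in WT tumor and 10902, 10510, 9362 and 9202 in IL-6 KO tumor. Only WT library 4 reached the IL-6 KO range, and the log2 fold change was 0.41 (standard error 0.14, limma adjusted p = 0.066). Without WT library 4 it was 0.57 (limma adjusted p = 0.00779), without WT library 1 it was 0.32 (0.143), and after removal of the GC and length trends it was 0.19 (0.379). Srebf1, which encodes the SREBP1 forms, had 3644, 3092, 3432 and 3568 in WT and 4716, 3415, 3654 and 3973 in IL-6 KO, with a log2 change of 0.19 (limma adjusted p = 0.218).

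Insig1, the sterol-sensing anchor of SCAP and itself a known SREBP target, had 817, 1362, 1134 and 1562 in WT and 1409, 783, 1826 and 1513 in IL-6 KO tumor. The groups overlapped throughout, with a log2 change of 0.16 (standard error 0.27, limma adjusted p = 0.713). Insig1 lies 1.93 Mb from Il6 on chromosome 5, and the deletion is carried by host cells only. Scap had 9891, 8353, 8194 and 8926 in WT and 9122, 11454, 7480 and 8354 in IL-6 KO, with a log2 change of 0.028 (standard error 0.12). Stard4, a cytosolic sterol carrier, had 0.087.

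Elongases and desaturases did not follow Fasn past the threshold. Scd1, the desaturase that makes oleate, had 3750, 4205, 3872 and 4668 in WT tumor and 5091, 3770, 4219 and 4644 in IL-6 KO tumor, a log2 change of 0.10 (standard error 0.10, limma adjusted p = 0.532). Scd2, its paralog, had 3342, 5147, 5136 and 7508 in WT and 7196, 5560, 6037 and 7078 in IL-6 KO. The WT libraries alone spanned more than the difference of the means, and the log2 fold change was 0.34 (standard error 0.20, limma adjusted p = 0.265). Elovl6, which extends palmitate, had -0.19 (limma adjusted p = 0.188), while Elovl5 and Fads1, which act on polyunsaturated chains, had 0.025 and 0.077. Fads2, the delta-6 desaturase, had the largest negative value of the 32 genes in tumor, -1.49 (limma adjusted p = 0.083), at means of 94.1 and 39.1. Its IL-6 KO library 2 stood at 95.2 while the other 3 lay between 17.7 and 24.8, and without that library the value was -2.03 (limma adjusted p = 0.00851).

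**Figure D2:**
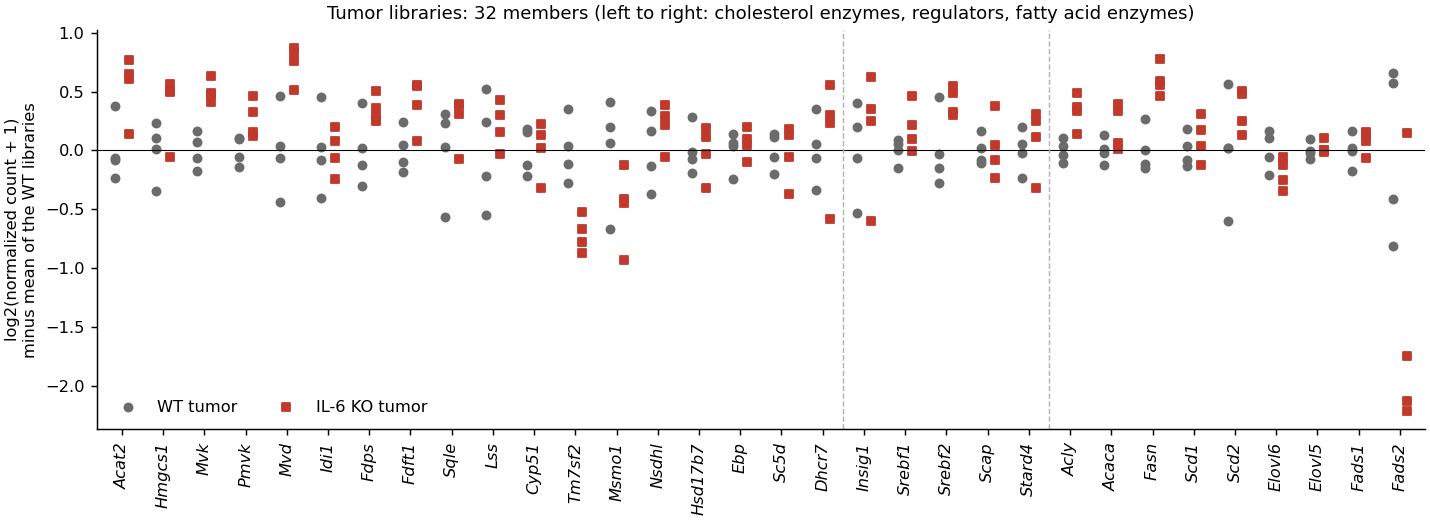
Each library's log2(normalized count + 1) minus the mean of the 4 WT libraries (y axis) for the 32 genes in tumor (x axis), with dashed lines between the 3 classes. Most IL-6 KO points of the early cholesterol enzymes, Srebf2, Acly and Fasn lie above 0. Those of Tm7sf2 and Msmo1 and 3 of the 4 of Fads2 lie below, and those of the other late enzymes straddle 0.

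Libraries of one genotype differed in the level of the cholesterol enzymes. Relative to each library's own median gene, WT tumor library 1 was the lowest of its group for 15 of the 18 enzymes and library 4 the highest for 13, where 25.6% and 20.4% of the 10887 genes listed in both tables had these libraries lowest and highest. IL-6 KO library 2 was the lowest of its group for 13 enzymes, against 35.0% of those genes. These counts are a description without a test. The mean level over the 18 enzymes was -0.59, -0.25, -0.33 and -0.06 (log2) in WT tumor 1 to 4 and -0.07, -0.43, -0.12 and -0.08 in IL-6 KO tumor. WT library 4 thus stood above all IL-6 KO libraries, and IL-6 KO library 2 below 3 of the WT libraries. Without IL-6 KO library 2, 8 of the 32 genes (25.0%) passed the threshold, near the 23.0% of all genes called in that fit. Hmgcs1 then had a log2 change of 0.52 (limma adjusted p = 0.0184) and Fdft1 0.49 (0.0155), whereas without WT library 1 they had 0.26 (0.252) and 0.33 (0.135).

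**Figure D3:**
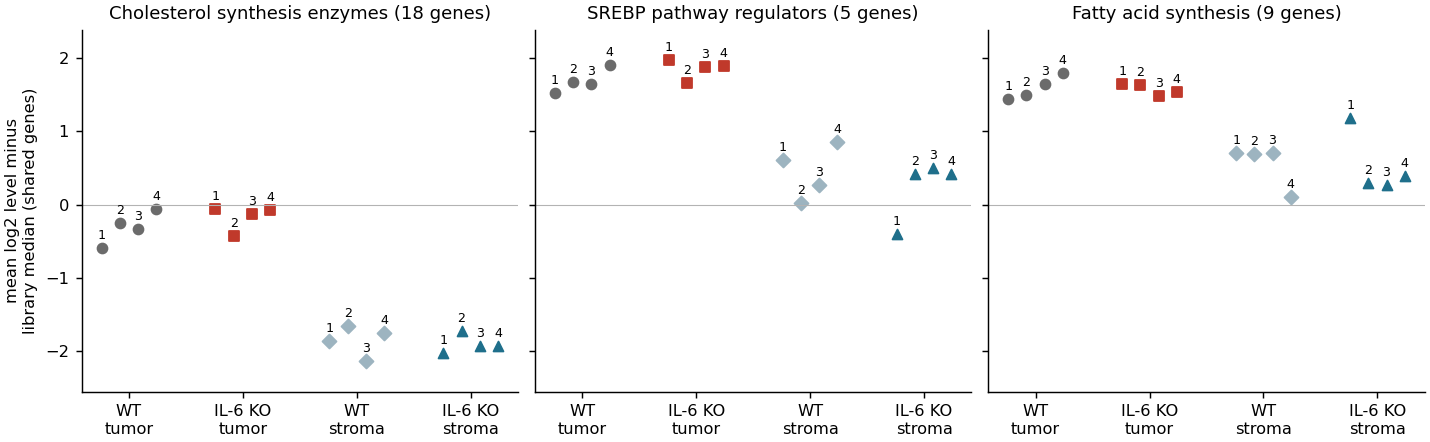
Mean log2 level over the genes of a class minus the library's median over genes listed in both tables (y axis), for each of the 16 libraries (points, numbered by library) in the 4 groups (x axis). Genotypes overlap in all 3 panels, and every tumor library lies above every stroma library.

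Other genes of lipid metabolism were read from lists written from general knowledge, and their counts stand beside 10.6% of all genes called higher and 9.16% called lower. Of 22 tested enzymes of other lipid synthesis steps, 7 were higher and 2 lower in IL-6 KO tumor, with Pcyt2, of phosphatidylethanolamine synthesis, at a log2 change of 0.63 (limma adjusted p = 0.00419), Agpat2, of phosphatidate synthesis, at 0.50 (0.0194), and Slc25a1, the mitochondrial citrate carrier, at 0.32 (0.0257). Of 13 genes that use isoprenoids, 3 were higher and 1 lower, and the farnesyltransferase subunits moved apart, Fntb by 0.52 (limma adjusted p = 0.0176) and Fnta by -0.47 (0.0171). Of 14 genes of cholesterol uptake, transport and storage, Stard3 was higher at 0.58 (limma adjusted p = 0.0301) and Vldlr lower at -1.66 (0.032). Of 7 LXR targets and efflux genes, 1 was called (Abca7, log2 fold change 0.37, limma adjusted p = 0.00827), and of 16 genes of fatty acid oxidation, 1 (Acads, 0.41, 0.00867). The medians of these lists lay between -0.033 and 0.16.

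Markers of other cells moved with genotype in the same tumor libraries. All 6 neutrophil precursor markers and 9 of 12 mature neutrophil markers were higher in IL-6 KO tumor, with none of them at 0. Of all genes, 10.6% were called higher and 9.16% lower. The summed normalized count of the 12 lay between 4707 and 5320 in WT and between 7230 and 17763 in IL-6 KO. Of 10 monocyte and macrophage markers, 3 were higher (Ly6c2, Lyz2 and Ccr2), none was lower and 7 were not called. The log2 fold change was positive for 5 of the 10 and negative for 5, with a median of 0.00056. In bulk samples, fewer cells of a type and less RNA per cell cannot be told apart. Of 10 proliferation genes in tumor, 2 were higher, 1 was lower and 7 were not called. The part of these cells and of proliferation in the results was not tested.

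The second comparison asked the same of the host cells. In stroma, 30 of the 32 genes had a mean normalized count over 10 and were tested, Mvk and Nsdhl being under it, and none passed the threshold. Among all 12202 genes tested, 0% were called higher and 0.0082% (1 gene) lower, so a count of 0 of 30 does not set these genes apart. At an unadjusted p under 0.05, where 9.15% of all genes stood, 1 gene was higher (Msmo1, 3.33%, against 3.95%) and 1 lower (Tm7sf2, 3.33%, against 5.2%). The same 2 genes were the ones without overlap of the genotypes, against 2.54% of all genes higher and 3.25% lower. Of the 30, 16 had a positive log2 fold change, with a median of 0.074, against -0.013 over all genes. The median residual SD per gene was 0.86 in stroma and 0.21 in tumor on the log2 scale.

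Msmo1 had normalized counts of 6.12, 7.59, 3.28 and 10.6 in stroma of WT mice and of 114, 38.8, 40.5 and 33.5 in IL-6 KO stroma. The lowest IL-6 KO library (33.5) lay well above the highest WT library (10.6), and the IL-6 KO values rest on 23.3 to 33.5 read equivalents each. The log2 fold change was 2.77 (standard error 0.76, limma adjusted p = 0.33). Msmo1 shares 202 nucleotides at 97.5% identity with Zmynd8, whose means were 460 in WT and 677 in IL-6 KO stroma, and reads of that stretch could fall to either gene. In tumor, its value pointed the other way and was not called.

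Tm7sf2 had 35.4, 22.2, 25.3 and 10.3 in stroma of WT mice and 6.88, 4.68, 0 and 5.76 in IL-6 KO stroma. As in tumor, every IL-6 KO library lay below every WT library, with a log2 change of -2.42 (standard error 1.04, limma adjusted p = 0.515), but the IL-6 KO values rest on at most 5.04 read equivalents. It was the only one of the 30 genes to separate the genotypes in the same direction in both compartments, and whether the effect of genotype differs between compartments was not tested for any gene, because the 2 tables were normalized separately.

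The next genes by p in stroma were Fads1, Acaca and Pmvk, which overlapped between genotypes. Fads1 had 382, 256, 209 and 135 in WT and 265, 93.0, 89.9 and 60.04 in IL-6 KO, with a log2 change of -1.08 (limma adjusted p = 0.554). Acaca had 222, 183, 187 and 138 against 335, 285, 319 and 216, with a log2 change of 0.66 (limma adjusted p = 0.583). Its copy Gm5182, 99.2% identical over 6118 nucleotides, had means of 229 and 209, similar to Acaca itself, so the split of reads between them is uncertain. Pmvk had 75.8, 42.6, 51.8 and 49.0 against 149, 73.0, 67.1 and 121, with a log2 change of 0.85 (limma adjusted p = 0.61).

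Of the regulators in stroma, Srebf2 was the most even, with 444, 753, 754 and 760 in WT and 756, 566, 668 and 460 in IL-6 KO and a log2 change of -0.14 (standard error 0.32). Srebf1 had 163, 36.6, 99.7 and 62.4 against 31.8, 160, 122 and 127, and Scap 333, 56.6, 73.9 and 273 against 63.3, 200, 71.7 and 149. Both spread widely within each genotype. Insig1, close to the deleted locus, had 66.0, 74.2, 98.3 and 104 in WT and 28.8, 30.1, 60.05 and 88.5 in IL-6 KO, with overlapping groups and a log2 change of -0.84 (standard error 0.53, limma adjusted p = 0.643). The part of its position in this value was not tested.

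Fasn had 128, 155, 132 and 229 in stroma of WT mice and 223, 330, 113 and 385 in IL-6 KO stroma, with a log2 change of 0.60 (standard error 0.44, limma adjusted p = 0.703). The size was that seen in tumor, but IL-6 KO library 3 was the lowest of all 8. Scd1 had 144, 165, 302 and 23.1 against 266, 148, 84.9 and 142, and Scd2 171, 131, 228 and 109 against 277, 127, 260 and 149. The genotypes overlapped for both desaturases. Fads2 spanned 98.2 to 1035 in IL-6 KO stroma and 138 to 236 in WT.

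**Figure D4:**
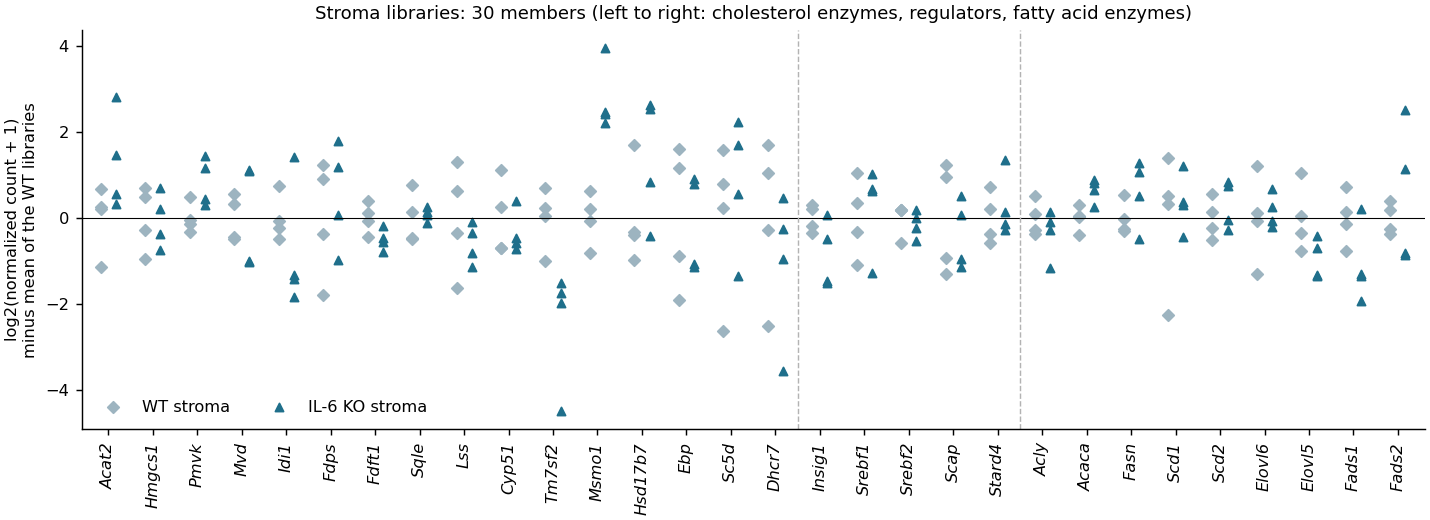
Each library's log2(normalized count + 1) minus the mean of the 4 WT libraries (y axis) for the 30 genes tested in stroma (x axis), with dashed lines between the 3 classes. Only Msmo1 (above) and Tm7sf2 (below) separate the genotypes, and the spread of single genes reaches several log2 units.

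Read equivalents moved with genotype in stroma as well, whereas no cell type marker was called there. The median gene had 92.0 to 184 read equivalents in WT and 27.2 to 72.2 in IL-6 KO stroma. The non-coding RNA Rn7s1 took 19.2% to 50.1% of the summed normalized counts of WT stroma libraries and 71.5% to 79.0% of IL-6 KO libraries 1 to 3, while IL-6 KO library 4 stood apart with 10.9% Rn7s1 and 61.5% CT010467.1. The part of these differences in the results was not tested, and without IL-6 KO library 4 Msmo1 had a log2 change of 2.95 (limma adjusted p = 0.294) and Tm7sf2 -2.66 (0.405). The 12 mature neutrophil markers, none of them called, summed to between 7865 and 15206 in WT and to between 8196 and 33821 in IL-6 KO. Of 10 proliferation genes, 9 had a negative log2 fold change and none was called, and the 10 summed to between 22630 and 37624 in WT and to between 16271 and 24727 in IL-6 KO. Of the context genes, none passed, the smallest p in the lipid lists being that of Dgat1, a triglyceride synthase, with a log2 change of 1.38 (limma adjusted p = 0.324), and that of Mbtps1, the first protease to cut SREBPs, with -1.36 (0.324).

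The levels of the genes were then set across the 4 groups. Because the tables were normalized separately, each value was taken as log2(normalized count + 1) minus the library's median over the 10887 genes listed in both tables with a mean over 10 in each, and the result is a description without a test. Every tumor library lay above every stroma library for 15 of the 30 genes in that set, against 18.3% of the 10887, and below for 2 (Fdft1 and Fads2), against 21.5%. The median of WT tumor minus WT stroma was 1.62 over the 32 genes and -0.065 over the shared genes. It was 1.82 for the cholesterol enzymes, 1.24 for the regulators and 1.62 for the fatty acid enzymes. In IL-6 KO the median over the 32 was also 1.62.

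Single genes ranged widely around that median. Fasn stood at 3.98 ± 0.18 (SD, n = 4) in WT tumor, 4.56 ± 0.14 in IL-6 KO tumor, 0.64 ± 0.41 in stroma of WT and 1.20 ± 0.79 in stroma of IL-6 KO mice, on this log2 scale. Srebf2 was nearly level between tumor and stroma in WT, at 2.79 ± 0.31 and 2.72 ± 0.38. In IL-6 KO it was 3.19 ± 0.13 in tumor and 2.54 ± 0.31 in stroma, a difference of 0.65 without overlap of the libraries. Srebf1 was 1.67 ± 0.10 and 1.84 ± 0.21 in tumor against -0.35 ± 0.90 and -0.12 ± 1.05 in stroma. Scap followed Srebf1, with 3.03 ± 0.12 and 3.04 ± 0.26 in tumor and 0.48 ± 1.31 and 0.07 ± 0.81 in stroma. Fads2 was the reverse, at -3.64 ± 0.72 and -5.14 ± 1.11 in tumor and 0.83 ± 0.33 and 1.29 ± 1.64 in stroma. Fads1 was level in WT, at 1.06 ± 0.13 in tumor and 1.19 ± 0.62 in stroma. In IL-6 KO, Fads1 was 1.12 ± 0.11 in tumor and 0.06 ± 0.91 in stroma.

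Per kilobase of the longest annotated transcript, Acly had the highest mean normalized count in WT tumor (2612 per kb). Next were Scap (2092), Fasn (1702) and Srebf2 (1502). The order of genes depends on the transcript length used, and the effect of that choice was not tested. In IL-6 KO tumor the order was Acly (3296), Fasn (2570), Scap (2153) and Srebf2 (1969). Among the cholesterol enzymes of WT tumor, Cyp51 (808) and Fdps (716) were highest, and Tm7sf2 (23.99) was lowest. Lss (118), with a longest transcript of 6992 nucleotides, was the next lowest. Fads2 had 29.9 per kb. In WT stroma Srebf2 (134), Acly (93.8) and Fads1 (70.9) led, and Sc5d (1.75) was lowest.

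**Figure D5:**
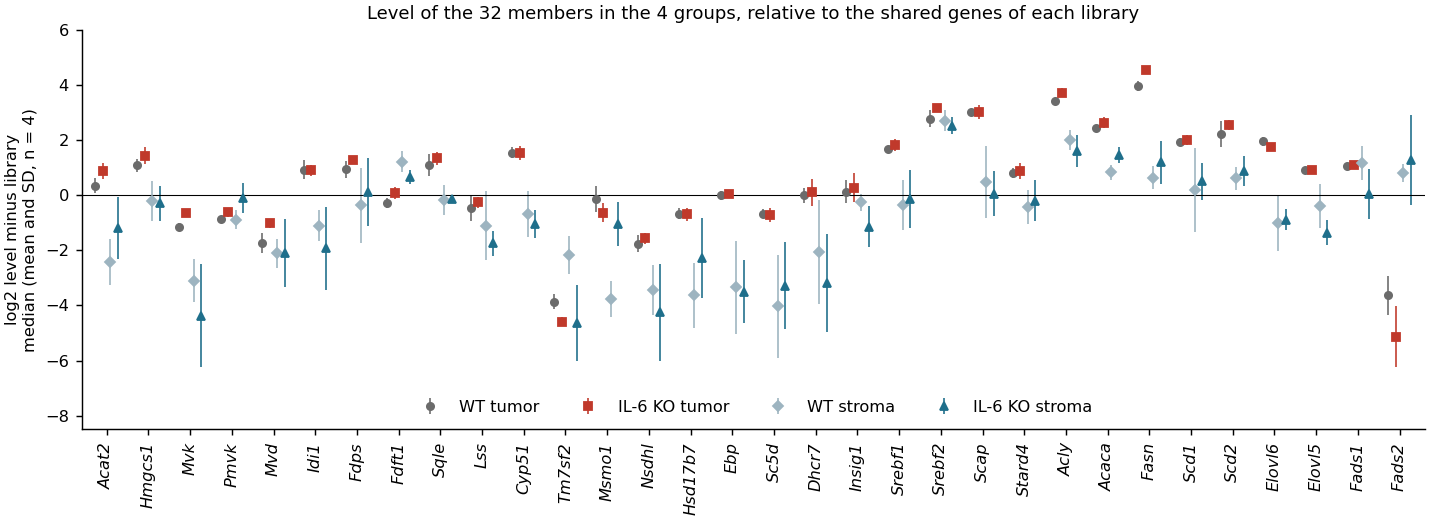
Level of the 32 genes (x axis) as log2(normalized count + 1) minus the library's median over shared genes (y axis), as mean and SD of 4 libraries for each of the 4 groups. Tumor means lie above stroma means for most genes. Fads2 and Fdft1 lie the other way in both genotypes, Tm7sf2 and Fads1 in WT and Pmvk in IL-6 KO. The SD bars are longer in stroma for most genes.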

How the data were processed

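RNA of mCherry+ and mCherry- marrow cells was rRNA-depleted and sequenced single-end (75 nt) by the authors, who quantified transcripts with Salmon 1.3.0 against mm10 with its GC and sequence bias options on and normalized the estimated counts with DESeq2 1.28.1, per the labels and the study's methods. They deposited, per compartment, normalized counts, a signal scaled between libraries. The deposited comparisons of the authors (fold changes and p-values) were not used. Repeated values of a library were whole multiples of 1 step (tolerance 0.0002 steps), taken as 1 read, but estimated counts are mostly fractional, so no count test was run and read equivalents are approximate. PCR duplicates make them an upper limit on molecules.

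Groups came from the titles. Each compartment was fitted alone with limma 3.58.1 (R 4.3.3) on log2(normalized count + 1), with a variance trend, for genes with a mean over 10, two-sided, with genotype as the only term. The pseudocount understates changes of low genes. The 32 genes, the lists and the tests were chosen with earlier results of these data known. All 32 genes are accounted for, and values per library are given for those called in tumor, the 5 with the smallest p in stroma, and Srebf1, Srebf2, Insig1, Scap, Scd1, Scd2 and Fasn. Up to 3 genes of each context list were named by p. The tumor result of 1 context list, on SREBP processing, is not reported here. Annotation was GENCODE vM21 (15069 of 15080 tumor and 13338 of 13344 stroma identifiers matched). Length is that of the longest transcript. Copies are other genes' transcripts that match over 150 nucleotides or more at 97% identity or more (BLAST 2.17.0). The code was tested on simulated data. Python 3.11.15, pandas 2.3.3 and matplotlib 3.10.9 were used. The alternatives were pseudocounts of 0.5 and 5, no filter or a mean over 50, quantile normalization, median centring, limma array weights, a block for the replicate number, removal of GC and length trends (loess, span 0.3), each library left out, and centring of levels on the mean.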

Additional observations from a re-analysis of the deposited data

Results flagged for a closer look

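Within a group of 4 libraries, 10 values stood far from the other 3 by Dixon's test (gap to the nearest library over the range), among 128 groups of libraries examined. Chance alone gives about 1 such value in 20 groups, and none lay in WT tumor, 3 in IL-6 KO tumor, 2 in WT stroma and 5 in IL-6 KO stroma. In IL-6 KO tumor these were Hmgcs1 at a normalized count of 2213 in library 2, Fads2 at 95.2 in library 2 and Elovl5 at 2202 in library 4. In IL-6 KO stroma, Cyp51 stood at 83.8, Msmo1 at 114 and Fads1 at 265 in library 1, the library with the fewest read equivalents. Also in IL-6 KO stroma, Idi1 stood at 127 in library 2 and Stard4 at 192 in library 3. In WT stroma, Srebf2 was low at 444 in library 1 and Hsd17b7 high at 25.4 in library 2.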

How the results depend on the processing

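Of 1112 values of single genes and medians under the alternatives, 1008 were counted as kept. For single genes this meant the same direction and the same side of the threshold, and the medians over all genes were counted as kept without a check. Most single genes were uncalled in the main fit, so this count says little of the 6 called in tumor. In tumor, 5 genes higher became 3 with quantile normalization and 1 after the GC and length trend was removed. The 1 gene lower became 0 with a mean over 50, with quantile normalization and with the replicate block, and 2 with array weights (Tm7sf2 and Fads2). The replicate block left 5 genes higher, put Tm7sf2 at a limma adjusted p of 0.0928 and changed no other call. Same-numbered libraries did not deviate together in either compartment (correlations of -0.03 to 0.13). That does not exclude a pairing by number, and the labels do not say whether there was one. Leaving out 1 library gave 2 to 8 genes higher and 0 to 2 lower. Adjusted p rose above the threshold at most to 0.111 for Acat2 (lost without WT 1, 2 or 3 or IL-6 KO 1, 3 or 4), 0.0628 for Acly (WT 2 or 3, IL-6 KO 1, 3 or 4), 0.0587 for Mvd (WT 2, IL-6 KO 1 or 4) and 0.102 for Tm7sf2 (any but WT 1). The causes were not tested. In stroma no gene was called under any alternative, and the median of the 30 genes ranged from -0.071 to 0.17 without 1 library, below 0 without WT 1, WT 2 or IL-6 KO 1. Centring levels on the mean moved the tumor minus stroma median to 2.03.

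Signs of uncalled log2 fold changes near 0 turned as follows. In tumor, quantile normalization gave Cyp51 -0.031 and Scap -0.025, and array weights gave Hsd17b7 0.0086, Sc5d 0.073 and Scap -0.040. Removal of the GC and length trend gave, in tumor, Idi1 0.17, Hsd17b7 0.13, Sc5d 0.14, Srebf1 -0.043, Scap -0.21 and Fads1 -0.035. In stroma, array weights gave Idi1 0.068, Sc5d -0.13, Scap 0.21 and Elovl6 -0.32, and removal of the trend Hmgcs1 0.15 and Mvd -0.17. Leaving out 1 library gave, in tumor, Cyp51 -0.058 to 0.12, Dhcr7 -0.018 to 0.36, Ebp -0.020 to 0.11, Elovl5 -0.0014 to 0.056, Hsd17b7 -0.078 to 0.092, Idi1 -0.14 to 0.14, Insig1 -0.021 to 0.41, Sc5d -0.10 to 0.088 and Scap -0.089 to 0.12. In stroma it gave Cyp51 -0.58 to 0.041, Ebp -0.75 to 0.42, Elovl6 -0.27 to 0.57, Fads2 -0.17 to 0.96, Fdps -0.068 to 1.03, Hmgcs1 -0.36 to 0.19, Mvd -0.30 to 0.41, Sc5d -0.080 to 1.51, Scap -0.80 to 0.042, Scd1 -0.38 to 0.83, Sqle -0.067 to 0.35, Srebf1 -0.089 to 0.78 and Stard4 -0.090 to 0.52.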
